A study of Mus musculus with 14 samples.

Results

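Collagen genes were described in whole mouse fetuses at embryonic day 12.5 that had received, as zygotes, an injection of a let-7f-5p microRNA mimic or of vehicle. Members were all genes whose symbol is Col, a number, a, and a number, which gave 43 of the 18132 named genes in the table. They comprised 11 fibrillar collagens, 6 basement membrane (type IV) collagens and 26 other collagens. The 26 were 9 fibril-associated (FACIT) collagens, 6 beaded filament (type VI) chains, 2 multiplexins, 2 short-chain (type VIII) chains, 4 transmembrane collagens, the anchoring fibril collagen Col7a1, and 2 placed in no class, Col26a1 and Col28a1. Poly-A RNA of 14 fetuses was sequenced, 1 library per fetus. There were 3 let-7f females against 5 vehicle females, and 2 let-7f males against 4 vehicle males. Every fetus was wild type and of the F1 cross C57BL/6Jx129S1/SvlmJ. Every embryo was injected as a zygote, cultured in KSOM medium and carried by a CD1 pseudo-pregnant recipient dam, so the vehicle fetuses, which received nuclease-free water, shared injection, culture and transfer with the let-7f fetuses. The mimic was a locked nucleic acid duplex given at what the labels call a stress-relevant concentration. Litters and dams are not named in the labels, so fetuses may share a dam. The p-values set group differences only against the spread between these fetuses, and shared dams were not modelled. The series title asks about sex-specific somatic growth, and each sex was therefore compared on its own before the sexes were compared with each other.

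Collagens are secreted or membrane-bound proteins built of 3 chains wound into a triple helix. Fibrillar collagens assemble into the cross-linked fibrils of skin, bone, tendon and cartilage. Type IV collagens form the sheet-like network under epithelia and around vessels. FACIT collagens decorate fibrils, type VI collagen forms microfilaments around cells, and transmembrane collagens sit in the plasma membrane. At this fetal stage the skeleton is largely cartilage and mesenchyme, where types I, II and III are the main fibril-forming chains. A microRNA of the let-7 family lowers the output of messenger RNAs whose 3' untranslated region (3' UTR) pairs with its seed, bases 2 to 8.

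The mimic's guide strand is printed below with its seed in capitals, as the 22 bases in the labels, and it equals the mature let-7f-5p listed by RefSeq (GRCm38.p6) for Mirlet7f-1 on chromosome 13 and Mirlet7f-2 on chromosome X. The letters that pair with the seed, CTACCTC, were searched on the sense strand of 3' UTRs taken from 1 GENCODE M21 transcript per gene, so other isoforms may differ. An 8-base match carries A after these 7 letters. A match occurred in 9 of 43 collagen 3' UTRs (20.9%), against 1441 of 15475 tested genes with a 3' UTR (9.31%). By class, 6 of 11 fibrillar, 0 of 6 basement membrane and 3 of 26 other collagens had one. Among all tested genes whose 3' UTR was 800 to 2000 bases long, 451 of 4804 (9.39%) had one. Each of the 9 collagens had a single match. The 6 fibrillar matches are shown in windows of 30 bases, with the match in capitals, followed by that of Col14a1. These stretches are exonic, in the 3' UTR, and are given on the strand of the gene.
let-7f-5p mimic: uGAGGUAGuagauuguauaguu
Col1a1 (7-base match, chr11:94952385-94952414, GRCm38, + strand): gcaattgtgttgctgaaagaCTACCTCgtt
Col1a2 (8-base match, chr6:4541057-4541086, GRCm38, + strand): caaacttccaaaggtttgaaCTACCTCAag
Col3a1 (8-base match, chr1:45349130-45349159, GRCm38, + strand): tgtcctcctccctatgttaaCTACCTCAac
Col5a2 (8-base match, chr1:45375099-45375128, GRCm38, - strand): ccaacatttcttagcatgacCTACCTCAtc
Col24a1 (7-base match, chr3:145551158-145551187, GRCm38, + strand): taaaatcttagtggtgcacaCTACCTCttt
Col27a1 (7-base match, chr4:63333878-63333907, GRCm38, + strand): ctgggctggggtgctgtgtgCTACCTCcca
Col14a1 (7-base match, chr15:55520439-55520468, GRCm38, + strand): taacaccatcactgaggaaaCTACCTCcta

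The other matches, of 7 bases each, were in Col23a1 and Col26a1. A match describes letters in this window and is not evidence of a site in use. The fetuses were collected long after the injection, and the mimic itself is not measured by poly-A sequencing. No type IV chain had these letters in the 3' UTR searched, which says only that they are absent from that window.

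Values below are the deposited normalized counts, in which each library was divided by a size factor. The libraries held 27709934 to 42898166 reads as recovered from those values. One read was worth 1.763 units in let-7f male 1 and 0.794 to 1.074 units in the other libraries. The libraries differed in composition. Ribosomal protein genes took 16.1% of reads in let-7f male 1, 9.67% in vehicle male 2 and 7.12% in vehicle female 1, and 4.02 to 6.19% in the others. Collagens took 0.467% of reads in let-7f male 1 and 0.82 to 1.21% in the others. Since whole fetuses were sequenced, fewer cells of a type and less RNA per cell cannot be told apart.

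Collagen levels spanned more than 3 orders of magnitude. Per kilobase of the GENCODE M21 transcript used for each gene, Col3a1 was highest in the 9 vehicle fetuses, at 12489 ± 1456 normalized counts per kilobase (SD, n = 9). It encodes the only chain of type III collagen, which is abundant in skin, vessels and soft tissue. The chains of type I collagen followed, with Col1a2 at 9152 ± 847 and Col1a1 at 5883 ± 767. Col2a1, the cartilage fibril collagen, stood next at 5025 ± 585. The vehicle ranges of Col1a1 and Col2a1 overlapped, as did those of Col3a1 and Col1a2. Within every vehicle fetus Col3a1 lay above Col1a2, and Col1a2 above Col1a1. The next in order were Col26a1 (3492 ± 465) and Col4a1 (3189 ± 914), whose ranges also overlapped. The lowest were the type IV chains Col4a4 (6.28 ± 1.52) and Col4a3 (3.6 ± 1.41), which together with the alpha-5 chain form the network of the mature glomerulus. The 4 genes Col3a1, Col1a2, Col1a1 and Col2a1 made up 50.7% of the summed collagen level per kilobase.

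**Figure D1:**
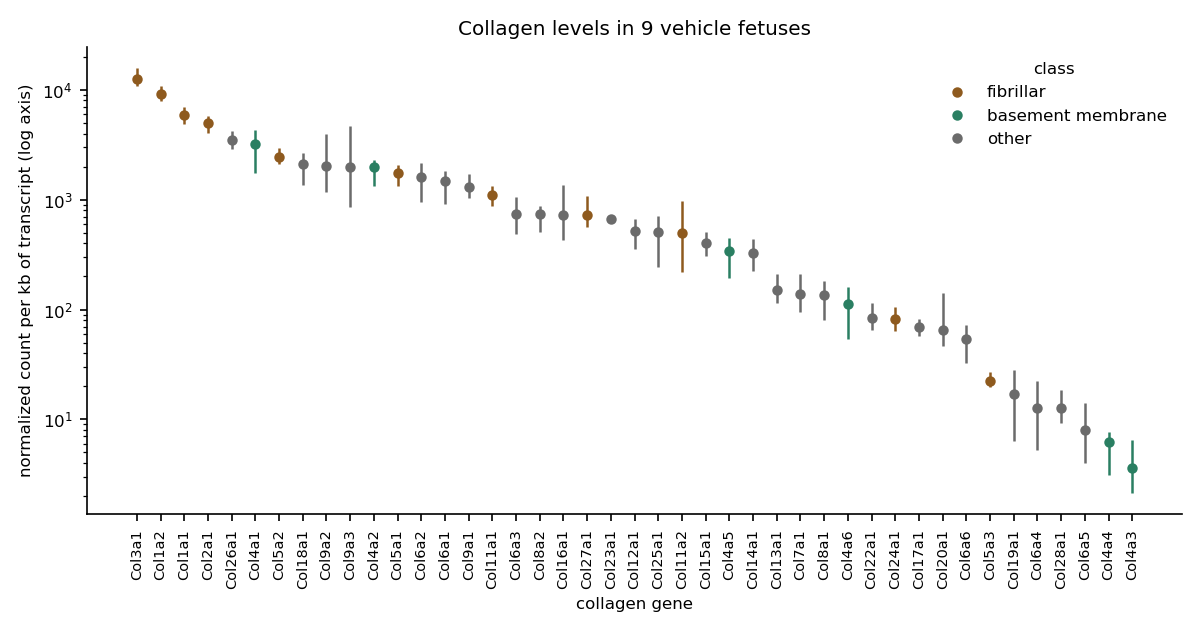
Level of each collagen gene in the 9 vehicle fetuses, in normalized counts per kilobase of transcript on a log axis, ordered from high to low and coloured by class; points are means and lines run from the lowest to the highest fetus. Col3a1 leads at 12489 and Col4a3 is lowest at 3.6 normalized counts per kilobase.

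As a class, fibrillar collagens supplied 61.1% of the summed collagen level per kilobase in vehicle fetuses, other collagens 30.2% and basement membrane collagens 8.7%. The fibrillar share held a narrow range over all libraries. It was 63.1, 63.2 and 59.6% in let-7f females, against 60.4, 60.3, 62.3, 61.3 and 63.0% in vehicle females. It was 57.0 and 60.4% in let-7f males, against 61.1, 57.3, 60.9 and 63.0% in vehicle males. The basement membrane share was less steady, from 5.1% in vehicle male 2 to 11.6% in vehicle female 2. It was lowest in vehicle male 2, vehicle female 1 (5.7%) and let-7f male 1 (6.8%), the 3 libraries with the largest ribosomal protein shares, whose part in this was not tested.

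Spread among vehicle fetuses of both sexes differed between classes. The median coefficient of variation was 13.0% for fibrillar collagens, 26.8% for basement membrane collagens and 25.4% for other collagens, against 24.2% for all collagens and 21.1% for all 17400 tested genes. Within the fibrillar class it ran from 9.3% for Col1a2 to 49% for Col11a2, a chain of the cartilage collagen type XI. The steadiest collagen was Col23a1, a transmembrane collagen, at 6.0%, with values of 3480 to 4178 in all 14 libraries. The most variable was Col9a3, a chain of the cartilage FACIT collagen type IX, at 61.6%. Col9a3 had 4965, 6040 and 4505 normalized counts in let-7f females, against 9380, 2946, 2882, 6748 and 2635 in vehicle females. It had 8422 and 3623 in let-7f males, against 4291, 14143, 5761 and 5767 in vehicle males. Vehicle male 2, vehicle female 1 and let-7f male 1 held its 3 highest values.

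**Figure D2:**
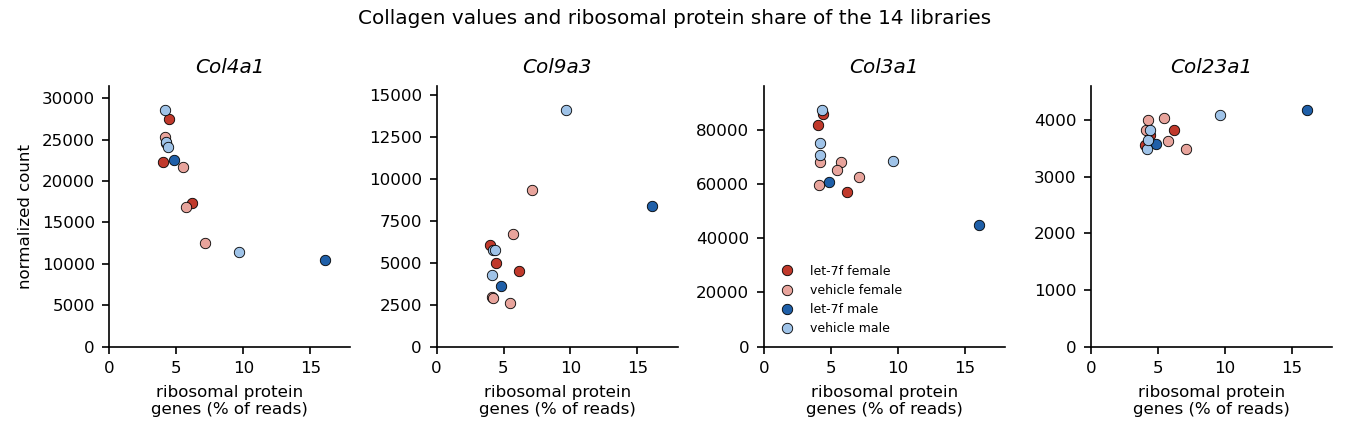
Normalized counts of Col4a1, Col9a3, Col3a1 and Col23a1 (y axes) against the percentage of reads taken by ribosomal protein genes (x axis) in the 14 libraries, coloured by group. Let-7f male 1 at 16.1% has the lowest Col4a1 (10416) and Col3a1 (45052), while Col23a1 lies between 3480 and 4178 in every library.

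Chains that share a molecule kept different degrees of balance. Col6a1 and Col6a2, chains of the same type VI molecule, had a ratio of normalized counts between 0.865 and 1.08 over the 14 libraries. The SD of that ratio on the log2 scale was 0.0915, against 0.415 for Col6a1 and 0.419 for Col6a2 alone. The ratio of Col1a1 to Col1a2, which join in type I collagen, was lowest in let-7f male 2 (0.52) and highest in let-7f female 1 (0.868). Its second lowest value, 0.529, was in let-7f female 3. The ratio of Col4a1 to Col4a2, the ubiquitous type IV pair, ran from 1.22 in vehicle male 2 to 2.21 in let-7f male 2. Both genes start 21 bp apart on opposite strands of chromosome 8, and Col4a5 and Col4a6 start 1343 bp apart on chromosome X (RefSeq, GRCm38.p6). The widest ratio among the 9 pairs was that of Col11a1 to Col11a2, from 1.65 in vehicle male 2 to 5.96 in let-7f male 2. Let-7f male 2 also gave the highest ratio of Col4a5 to Col4a6 (3.96) and of Col9a1 to Col9a2 (1.4). Ratios are of counts that were not divided by transcript length.

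In females, collagens of let-7f fetuses were mostly somewhat higher than in vehicle fetuses, but no gene differed beyond the spread between fetuses. Of 43 collagens, 36 were higher and 7 lower, with a median log2 difference of 0.17. Over all 17400 tested genes 8550 were higher and 8850 lower, with a median of 0. By class, 10 of 11 fibrillar (median 0.18), 5 of 6 basement membrane (median 0.09) and 21 of 26 other collagens (median 0.16) were higher. The limma test with Benjamini-Hochberg adjustment over all tested genes called 0 of 43, against 0.00575% of all genes, and every collagen had an adjusted p of 1. At an unadjusted p under 0.05 there were 0 higher and 0 lower collagens, against 0.494% of all genes higher and 0.316% lower. edgeR (0% of all genes called) and DESeq2 (0.0115%) also called 0 collagens, with 2 higher at that unadjusted threshold in each, against 0.563% and 0.73% of all genes, and 1 lower by DESeq2, against 0.477%. With library weights in limma 19 collagens were higher and 1 lower at an unadjusted p under 0.05, against 10.7% and 12.5% of all genes, the median was 0.31, and the smallest adjusted p of a collagen was 0.0615. The groups were without overlap in 0 of 43 collagens, against 0.787% of all genes higher and 0.707% lower.

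Among the main fibrillar chains, Col1a1 had 51515, 43420 and 23058 normalized counts in let-7f females, against 33425, 28962, 33792, 41267 and 33083 in vehicle females. Let-7f females 1 and 2 were above every vehicle female and let-7f female 3 was below every one. Col1a2 had 59377, 57217 and 43599 in let-7f females, against 49052, 44333, 48066, 51005 and 42169 in vehicle females. Col3a1 had 85851, 81866 and 57022 in let-7f females, against 62453, 59767, 68059, 67987 and 64978 in vehicle females. The same fetuses, 1 and 2, stood above the vehicle range in all 3 genes. Col2a1 had 29022, 28192 and 23080 in let-7f females, against 26018, 24194, 24720, 28637 and 22009 in vehicle females, and only let-7f female 1 exceeded that range. The log2 differences were 0.14 (SE 0.227) for Col1a1, 0.18 (SE 0.158) for Col1a2, 0.19 (SE 0.17) for Col3a1 and 0.09 (SE 0.154) for Col2a1.

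Over the family, let-7f female 3 held the lowest of the 3 let-7f female values in 35 of 43 collagens. The share of all genes for which this held was not computed. Its ribosomal protein share was 6.19%, against 4.43% and 4.02% in let-7f females 1 and 2. Without let-7f female 3 the median collagen difference was 0.32 and 0 collagens were called. Then 6 collagens were higher at a limma unadjusted p under 0.05, against 1.29% of all genes. Without let-7f female 1, or without let-7f female 2, the median was 0.09 and 0 collagens reached that threshold, and the fibrillar median was 0.05 without let-7f female 2. The type IV pair overlapped widely. Col4a1 had 27459, 22360 and 17337 in let-7f females, against 12566, 25376, 24637, 16871 and 21644 in vehicle females. Col4a2 had 15689, 11423 and 10491 in let-7f females, against 8544, 14685, 14096, 11397 and 13100 in vehicle females. Vehicle female 1 was lowest of these 8 fetuses for both genes.

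The collagens with the smallest p in the upward direction were Col6a6, Col24a1 and Col8a1. Col6a6, a type VI chain, had 600, 869 and 361 in let-7f females, against 433, 365, 368, 508 and 288 in vehicle females (log2 difference 0.57, SE 0.275, adjusted p of 1 by limma). Col24a1, a minor fibrillar collagen, had 609, 801 and 466 in let-7f females, against 520, 506, 474, 521 and 456 in vehicle females (0.3, SE 0.158). Col8a1, a chain of the short-chain network collagen type VIII of vessel walls and the eye, had 855, 1010 and 523 in let-7f females, against 727, 593, 534, 636 and 412 in vehicle females (0.43, SE 0.263). In each gene let-7f females 1 and 2 were above all 5 vehicle females and let-7f female 3 was inside their range.

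In the downward direction the smallest p belonged to Col6a5, Col6a4 and Col7a1. Col6a5, a type VI chain, had 38.1, 51.8 and 37.5 in let-7f females, against 60.2, 132, 37.5, 64.3 and 85.3 in vehicle females (-0.72, SE 0.39). Col6a4, another type VI chain, had 63.5, 61.4 and 48.6 in let-7f females, against 126, 38.5, 76.9, 83.8 and 53.7 in vehicle females (-0.28, SE 0.355). Col7a1, which forms the anchoring fibrils under skin epithelium, had 920, 1227 and 1244 in let-7f females, against 1421, 1159, 1094, 1316 and 1221 in vehicle females (-0.14, SE 0.302). The groups overlapped in all 3 genes, and the first 2 were among the lowest collagens in level.

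**Figure D3:**
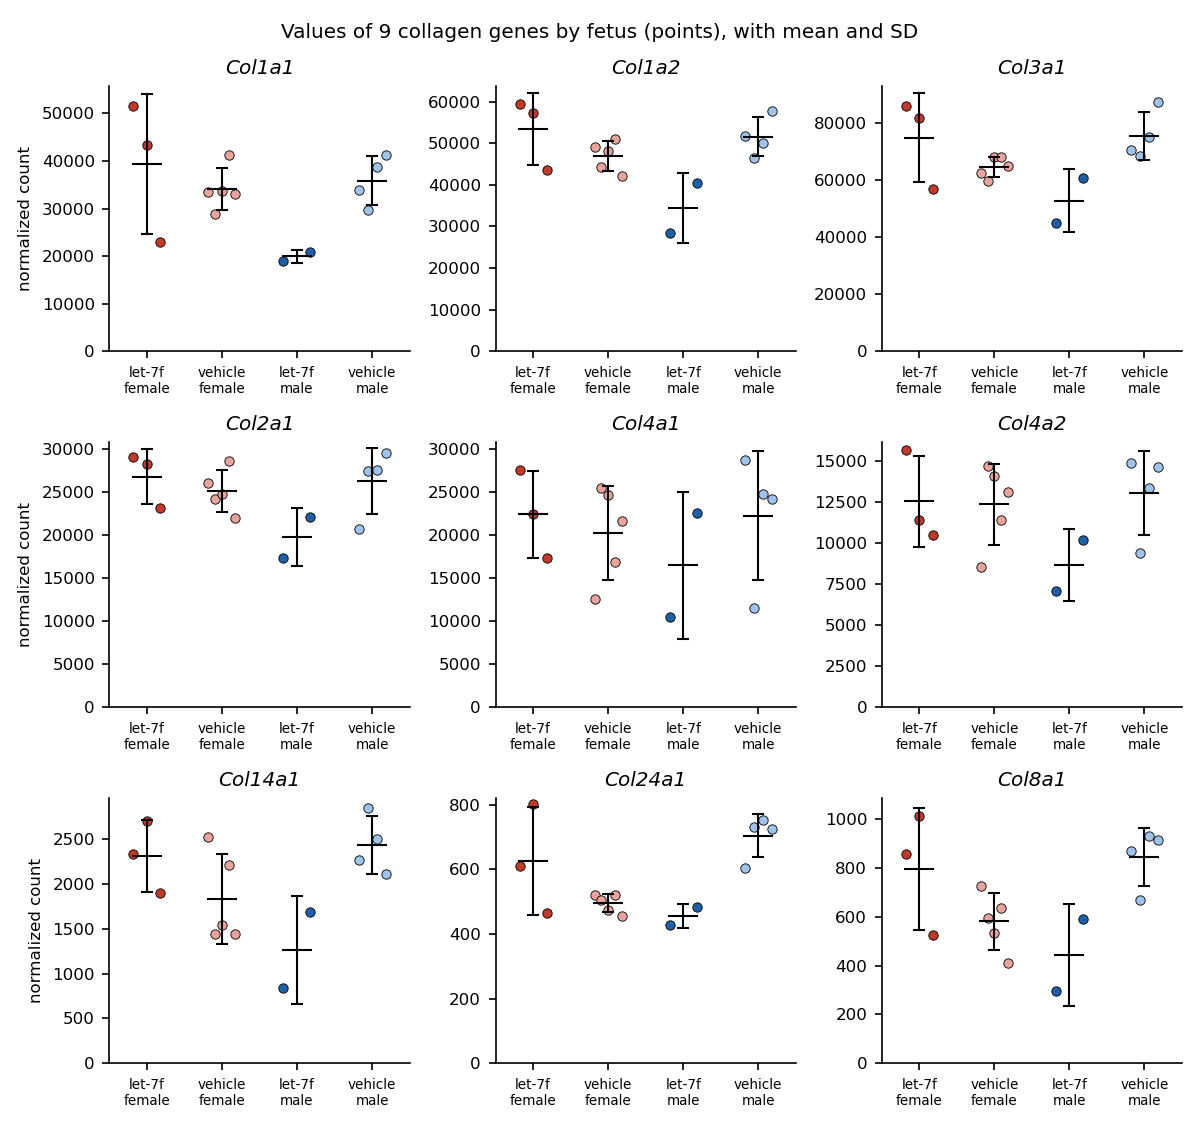
Normalized counts of 9 collagen genes in each fetus (points), with the group mean (long bar) and SD (whiskers), for let-7f females (n = 3), vehicle females (n = 5), let-7f males (n = 2) and vehicle males (n = 4); y axes start at 0. Both let-7f males lie below all 4 vehicle males for Col1a1, Col1a2, Col3a1, Col14a1, Col24a1 and Col8a1, while the female groups overlap in every panel.

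In males the direction was the other way: collagens of the 2 let-7f fetuses were mostly lower than in the 4 vehicle fetuses. Of 43 collagens, 38 were lower and 5 higher, with a median log2 difference of -0.52, against 8724 lower and 8676 higher among all genes. All 11 fibrillar (median -0.57), all 6 basement membrane (median -0.4) and 21 of 26 other collagens (median -0.43) were lower. The limma test called 0 of 43 after adjustment over all genes, against 0% of all genes. At an unadjusted p under 0.05, 23 collagens were lower and 1 higher, against 5.4% of all genes lower and 5.37% higher. Those 23 were 10 fibrillar, 2 basement membrane and 11 other collagens. With library weights 3 were lower, against 1.54% of all genes, and with only the male groups in the fit 15 were, against 2.44%. edgeR (0% of all genes called) and DESeq2 (0.333%) called 0 collagens. In 18 of 43 collagens both let-7f males were below all 4 vehicle males and in 0 above, against 5.9% of all genes below and 4.14% above. The 18 were 8 fibrillar collagens, Col4a3 and 9 others, including Col6a1, Col6a2 and Col6a3. Col4a3 had as few as 6 reads in a library.

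These values rested in part on let-7f male 1. It was below all vehicle males in 26 collagens, above them in 5, and lowest of all 14 libraries in 22. Let-7f male 2 was below all vehicle males in 24 and above them in 0. Set against the other 3 vehicle males, vehicle male 1 was below in 21 collagens and above in 9. The let-7f males were set against all 4, and a range over fewer fetuses is easier to fall outside. Vehicle male 2 was below in 16 and above in 19. Vehicle males 3 and 4 were below in 1 and 5, and above in 6 and 9. The share of all genes at these positions was not computed. Without let-7f male 1 the median collagen difference was -0.34, 36 were lower, and 3 were lower at an unadjusted p under 0.05, against 1.12% of all genes. Without let-7f male 2 the median was -0.71 and 18 collagens were called, together with 4390 of 17400 genes, a fit in which let-7f male 1 is the only treated male. A further fit left out 5 libraries picked by no stated rule (let-7f male 1, vehicle males 1 and 2, vehicle females 1 and 2). In it the median was -0.41 and 39 were lower. Vehicle male 1 and vehicle female 2 did not stand apart by ribosomal protein share, at 4.17% and 4.15%. Each of these fits assumes that a lone let-7f male varies like fetuses of the other groups.

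Type I and type III chains were lower in both let-7f males. Col1a1 had 18927 and 20976 normalized counts in let-7f males, against 33815, 29686, 38799 and 41167 in vehicle males. Col1a2 had 28511 and 40333 in let-7f males, against 51804, 46450, 50124 and 57680 in vehicle males. Col3a1 had 45052 and 60641 in let-7f males, against 70710, 68398, 75199 and 87383 in vehicle males. In none of these 3 genes did the groups overlap. Col1a1 averaged 19952 ± 1448 normalized counts in let-7f males (SD, n = 2) and 35867 ± 5135 in vehicle males (SD, n = 4). The log2 differences were -0.84 (SE 0.27) for Col1a1, -0.6 (SE 0.188) for Col1a2 and -0.52 (SE 0.201) for Col3a1, with limma adjusted p of 0.447 for each. Without let-7f male 1 they were -0.76, -0.35 and -0.31. Col2a1 had 17367 and 22128 in let-7f males, against 20678, 27396, 27490 and 29492 in vehicle males, so let-7f male 2 lay inside the vehicle range (-0.41, SE 0.182).

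The type V and XI chains, which join types I and II in mixed fibrils, lay lower too. Col5a1, a type V chain that starts type I fibrils, had 8766 and 13021 in let-7f males, against 14280, 17533, 16240 and 14928 in vehicle males (-0.55, SE 0.212). Col5a2, its partner, had 9490 and 15340 in let-7f males, against 17646, 13874, 19646 and 19120 in vehicle males (-0.53, SE 0.215). Let-7f male 2 was thus below the vehicle males for Col5a1 but inside their range for Col5a2. Col11a1, a type XI chain of cartilage fibrils, had 4794 and 7400 in let-7f males, against 8801, 9731, 8805 and 10199 in vehicle males (-0.65, SE 0.215). Col5a3, the scarcest fibrillar gene, had 81.1 and 96.4 in let-7f males, against 122, 128, 142 and 137 in vehicle males (-0.57, SE 0.191). Nearest to level among the fibrillar genes was Col27a1, a fibrillar collagen of cartilage (-0.02, SE 0.277). Col27a1 had 7567 and 4033 in let-7f males, against 4314, 8196, 5227 and 5339 in vehicle males. Let-7f male 1 and vehicle male 2 were its 2 highest males, and without let-7f male 1 the difference was -0.47.

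The 3 collagens with the smallest p in the downward direction were Col14a1, Col24a1 and Col8a1. Col14a1, a FACIT collagen of tendon and skin that regulates fibril growth, had 841 and 1685 in let-7f males, against 2262, 2847, 2499 and 2112 in vehicle males (-1.02, SE 0.291, limma adjusted p of 0.447). Col24a1 had 428 and 482 in let-7f males, against 605, 731, 751 and 725 in vehicle males (-0.62, SE 0.187). Col8a1 had 296 and 589 in let-7f males, against 867, 669, 928 and 913 in vehicle males (-1, SE 0.312). In all 3 genes both let-7f males were below every vehicle male, and without let-7f male 1 the differences were -0.52, -0.54 and -0.51. Col6a3, the largest type VI chain, had 2599 and 5166 in let-7f males, against 7210, 9607, 7422 and 6431 in vehicle males (-1.05, SE 0.346). Col6a1, which pairs with it, had 3902 and 4523 in let-7f males, against 6028, 7548, 7532 and 7363 in vehicle males (-0.75, SE 0.282). Col6a2 had 3949 and 4650 in let-7f males, against 5939, 8451, 7491 and 6799 in vehicle males (-0.73, SE 0.299). All 3 main type VI chains were thus below the vehicle males in both let-7f males. Col11a2 had 1742 and 1241 in let-7f males, against 1932, 5905, 3942 and 2921 in vehicle males (-1.2, SE 0.491), with a wide spread among the vehicle males.

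For the main type IV pair the male groups overlapped. Col4a1 had 10416 and 22509 in let-7f males, against 28625, 11478, 24693 and 24122 in vehicle males (-0.46). Col4a2 had 7103 and 10188 in let-7f males, against 14901, 9377, 13355 and 14614 in vehicle males (-0.6, SE 0.262, unadjusted p of 0.0409 and adjusted p of 0.447 by limma). For both genes the lowest values were those of let-7f male 1 and vehicle male 2. Let-7f male 2 was below the other 3 vehicle males for both genes as well. Let-7f male 1 and vehicle male 2 were the males with 16.1% and 9.67% ribosomal protein reads, and that share's part in the result was not tested. Without let-7f male 1 the difference was 0.1 for Col4a1 and -0.33 for Col4a2, and the median of the 6 type IV chains was 0.08. The multiplexins of basement membrane zones lay close to 0, with Col15a1 at -0.12 (SE 0.162) and Col18a1, the source of endostatin, at -0.11 (SE 0.234).

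In the upward direction the smallest p belonged to 3 collagens that were highest in let-7f male 1, with vehicle male 2 second among the males. Col22a1, a FACIT collagen of tissue junctions such as the muscle-tendon junction, had 1740 and 704 in let-7f males, against 615, 1015, 694 and 574 in vehicle males (0.65, SE 0.292). Col7a1 had 2715 and 1100 in let-7f males, against 1615, 1942, 879 and 912 in vehicle males (0.46, SE 0.358). Col20a1, a FACIT collagen, had 1014 and 197 in let-7f males, against 213, 636, 245 and 271 in vehicle males (0.53, SE 0.547). Let-7f male 2 was inside the vehicle male range for Col22a1 and Col7a1 and below it for Col20a1. Without let-7f male 1 the differences were -0.19 for Col7a1 and -0.64 for Col20a1, and 0 within rounding for Col22a1.

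**Figure D4:**
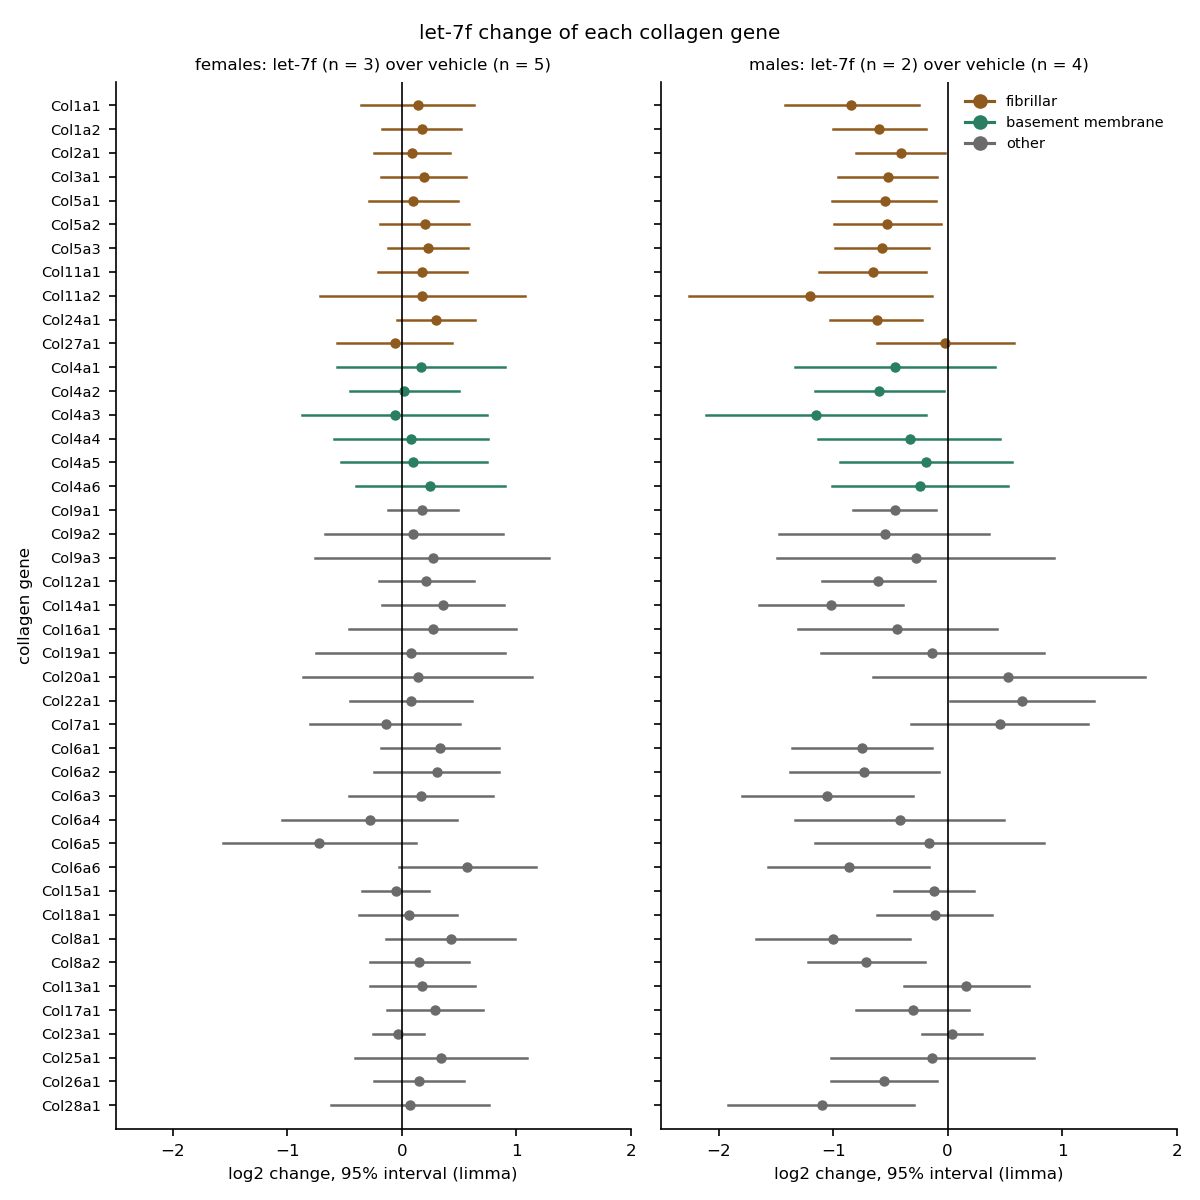
Log2 difference of each collagen gene (rows, coloured by class) between let-7f and vehicle fetuses, with 95% intervals from limma, in females on the left and males on the right. In females the intervals cross 0 in all 43 rows, whereas in males 38 of 43 points lie below 0 and the intervals are widest for Col20a1, Col9a3 and Col11a2.

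Set beside the seed matches, the 9 collagens with a match had a median log2 difference of -0.56 in males (8 of 9 lower), against -0.45 for the 34 without one (30 of 34 lower). In females the medians were 0.18 with a match and 0.16 without. Over all tested genes with a 3' UTR the male medians were -0.08 for the 1441 with a match and -0.01 for the 14034 without, and the female medians were 0.02 and -0.01. Among the collagens with a match, Col23a1 (0.04) and Col27a1 (-0.02) were near level in males, while Col14a1 was lower by over 1 on this scale. The Col27a1 value depended on let-7f male 1, without which Col27a1 was lower, as given above. These medians describe the genes and were not tested.

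Averaged over both sexes with equal weight, collagens of let-7f fetuses lay slightly below those of vehicle fetuses. Of 43, 36 were lower and 7 higher, with a median of -0.16. The limma, edgeR and DESeq2 fits called 0 collagens, against 0%, 0% and 0.046% of all genes, and with limma 0 had an unadjusted p under 0.05 in either direction, against 1.49% of all genes lower and 1.28% higher. By edgeR and by DESeq2 1 collagen was higher at that threshold, against 2.1% and 2.86% of all genes. The smallest p in the downward direction belonged to Col4a3 (-0.61, SE 0.29), Col28a1 (-0.52, SE 0.248) and Col1a1 (-0.35, SE 0.176), each with a limma adjusted p of 0.947. Col4a3 had 24.6, 34.6 and 21.3 in let-7f females, against 19.3, 55.1, 21.1, 28.9 and 24 in vehicle females. It had 10.6 and 16.7 in let-7f males, against 40.1, 18.2, 31.9 and 38.2 in vehicle males. Col28a1, a collagen of peripheral nerve in the mouse, had 46.1, 81.6 and 28.1 in let-7f females, against 49.4, 43.8, 47.6, 45.7 and 39.3 in vehicle females. It had 21.2 and 37.4 in let-7f males, against 78.3, 43.5, 69.1 and 61.3 in vehicle males. For both genes the groups separated in males and overlapped in females. Both rest on few reads, with as few as 6 for Col4a3 and 12 for Col28a1 in a library.

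In the upward direction the smallest p over both sexes belonged to Col22a1 (0.36), Col13a1 (0.17) and Col20a1 (0.34). Col22a1 had 771, 723 and 879 in let-7f females, against 761, 751, 711, 759 and 742 in vehicle females. Col13a1, a transmembrane collagen of the neuromuscular junction, had 511, 492 and 565 in let-7f females, against 540, 424, 457, 504 and 388 in vehicle females. It had 726 and 415 in let-7f males, against 360, 666, 524 and 462 in vehicle males. Col20a1 had 208, 263 and 402 in let-7f females, against 299, 275, 223, 278 and 208 in vehicle females. In all 3 genes let-7f male 1 held the highest of the 14 values.

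The sexes thus pointed in opposite directions. The difference between them was tested as the male minus the female log2 difference. It was below 0 in 37 of 43 collagens, with a median of -0.65, and the median was -0.78 for fibrillar, -0.55 for basement membrane and -0.62 for other collagens. The limma fit called 0 collagens (0% of all genes), as did edgeR (0%) and DESeq2 (0.155%). At an unadjusted p under 0.05, 19 collagens were below 0 and 0 above, against 4.41% and 4.12% of all genes. The smallest p in the downward direction belonged to Col24a1 (-0.93, SE 0.244), Col14a1 (-1.38, SE 0.381) and Col8a1 (-1.43, SE 0.408), with limma adjusted p of 0.522. In the upward direction it belonged to Col22a1 (0.57), Col7a1 (0.6) and Col6a5 (0.56). Col6a5 had 68.8 and 54.1 in let-7f males, against 66.5, 69.8, 120 and 39.1 in vehicle males. Without let-7f male 1 the median difference was -0.5 with 7 collagens below 0 at an unadjusted p under 0.05, against 1.6% of all genes. Without let-7f male 2 it was -0.92 with 16 collagens and 3206 genes called.

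Vehicle males were then set against vehicle females; these fetuses are also the controls of the comparisons above. Vehicle males were higher than vehicle females in 34 of 43 collagens, with a median log2 difference of 0.19. The median was 0.19 for fibrillar, 0 for basement membrane and 0.3 for other collagens. limma called 0 collagens, against 0.0402% of all genes, as did edgeR (0.0287%) and DESeq2 (0.069%). At an unadjusted p under 0.05, 7 collagens were higher and 0 lower, against 1.39% and 1.24% of all genes. Col24a1 and Col3a1 were the only collagens in which all 4 vehicle males were above all 5 vehicle females, against 0.672% of all genes higher and 0.759% lower. Col24a1 was 0.5 higher (SE 0.145, limma adjusted p of 1).

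Let-7f male 1 lay below the range of the 5 vehicle females in 25 of 43 collagens, above it in 7 and inside it in 11. Let-7f male 2 lay inside the range of the 5 vehicle females in 32 of 43 collagens and below it in 11. The share of all genes at these positions was not computed. Col14a1, Col24a1 and Col8a1 were at 1685, 482 and 589 in let-7f male 2, and at 1443 to 2527, 456 to 521 and 412 to 727 in vehicle females. Its Col1a1 value of 20976 and Col1a2 value of 40333 were below every vehicle female. The number of collagens with unadjusted p under 0.05 between vehicle sexes ranged from 1 without vehicle female 2, vehicle female 3 or vehicle male 4 (1.02%, 0.954% and 1.25% of all genes higher) to 11 without vehicle female 1 (2.7%).

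**Figure D5:**
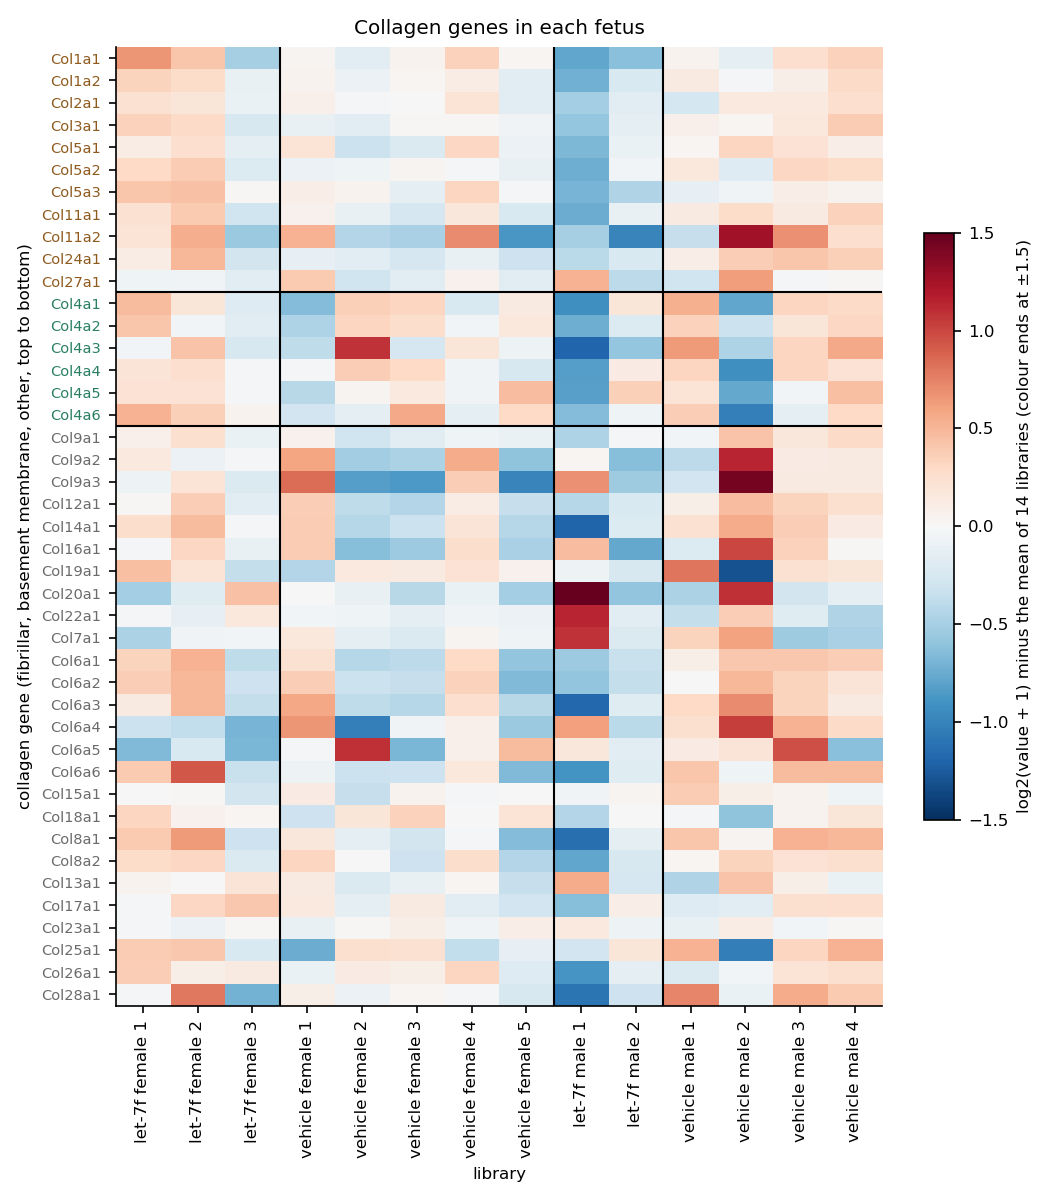
Log2 of the normalized count plus 1 minus the mean over the 14 libraries, for each collagen gene (rows, grouped by class) in each fetus (columns, grouped by sex and treatment); colour ends at ±1.5. Most fibrillar rows are blue in both let-7f males. Type IV rows are blue in let-7f male 1 and vehicle male 2, and mostly blue in vehicle female 1. Col9a2, Col9a3 and Col16a1 are reddest in vehicle male 2 and are red in other libraries too, including vehicle female 1.

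Genes that build, bind or degrade collagen were read from the same fits. None was called in either sex. Of 35 genes for collagen modification, secretion and cross-linking, 28 were lower in let-7f males (median -0.24). In let-7f females 27 were higher (median 0.1). At an unadjusted p under 0.05, 5 of the 35 were lower in males, against 5.4% of all genes, and 2 were higher in females, against 0.494%. In males the smallest p belonged to Lox, the lysyl oxidase that cross-links collagen (-1.13, SE 0.346), and Adamts2, which removes the N-propeptide of fibrillar procollagens (-0.79, SE 0.257). In females they were Adamts2 (0.51) and P4ha2, a prolyl 4-hydroxylase subunit (0.25). Of 16 fibril proteoglycans and regulators, 14 were lower in let-7f males (median -0.57), among them Thbs2, a matricellular thrombospondin (-0.95), and Ogn, a small leucine-rich proteoglycan (-1.01). All 16 were higher in let-7f females (median 0.32), where Aspn (0.88) and Lum (0.2) had the smallest p.

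Partners of basement membranes lay closer to 0. Of 16 laminin, nidogen and related genes, 11 were lower in let-7f males (median -0.1), with Nid2, a nidogen (-0.63), and Lama3, a laminin chain (-0.82), having the smallest p, and 9 were higher in let-7f females (median 0.01), where Lamc3 (-0.29) and Lama3 (0.27) did. Among 10 collagen receptors, Itgb1, the integrin beta-1 chain, was at -0.41 in males, Gp6, the platelet collagen receptor, was at 0.82, and the median was -0.18. In females the median was 0.1, with Itga10 at -0.2 and Lair1 at -0.32. Of 11 degradation genes 9 were in the table, with a median of -0.04 in males, where Timp3, an inhibitor of metalloproteinases, was at -0.36 and Mmp16 at -0.46. The female median was 0.05, with Timp3 at 0.2 and Mmp9 at 0.56.

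Markers of cell types that make collagen also varied between the groups, and their part in the collagen differences was not tested. Of 14 chondrocyte markers, 11 were lower in let-7f males (median -0.64), with Matn3 at -2.07 and Acan at -1.32. Their summed value was 11386 and 15608 in let-7f males, against 13587 to 18307 in vehicle males, so the groups overlapped. In females 11 of 14 were higher (median 0.22), with sums of 11240 to 15843 in let-7f females, against 10049 to 15602 in vehicle females. Fibroblast and mesenchyme markers (10 genes) had medians of -0.06 in males and 0.09 in females. Their sums were 22226 and 28763 in let-7f males, against 21149 to 31201 in vehicle males, and 24739 to 30883 in let-7f females, against 22147 to 30474 in vehicle females. Osteoblast markers, 7 of 8 tested, had medians of -0.17 in males and 0.35 in females, with sums of 2043 to 2466 in let-7f males, against 1791 to 2323 in vehicle males. Their female sums were 1814 to 2387 in let-7f females, against 1571 to 2115 in vehicle females.

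Other cell types also differed between libraries. Endothelial markers (8 genes), whose cells make type IV collagen, summed to 13991 and 20260 in let-7f males, against 11758 to 12966 in vehicle males, with a median of 0.3. In females they summed to 12825 to 13178 in let-7f fetuses, against 12086 to 13720 in vehicle fetuses. Erythroid markers (10 genes) summed to 428958 and 976409 in let-7f males, against 319827 to 886847 in vehicle males, with 6 higher and 4 lower and a median of 0.09; Hba-x and Hbb-bh1, embryonic globins, had the smallest p, at 2.07 and 2.72. In females 7 were higher and 3 lower, with a median of 0.25. Skeletal muscle markers (8 genes) had medians of -0.18 in males and 0.21 in females, and neuronal markers (8 genes) -0.2 and -0.08. Hepatocyte markers (10 genes) had a median of 0 in males and 1.46 in females, where vehicle female 2 had the lowest sum, 1443, against up to 127355 in the other vehicle females and 58573 to 77232 in let-7f females. Ribosomal protein genes, 84 tested, had medians of 0.93 in males and -0.17 in females. Trophoblast and yolk sac markers, 2 of 8 tested, had medians of 0.13 in males and 0.61 in females. Of all the markers in the table, Snorc was at 0 in 1 library, Prl2c2 in 3 and Rpl6l in 6.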

How the data were processed

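Poly-A RNA was sequenced from 14 fetuses, grouped by the sex and treatment in the labels. The deposited values are signal, namely normalized counts in which the authors divided each library by a size factor. Per the submitters' processing notes, which give no role or order, the tools were kallisto 0.50.1 and DESeq2 1.48.2, with Trimmomatic 0.39, FastQC 0.12.1 and MultiQC 1.28, and the build GRCm39. Dividing each column by its smallest step gave whole numbers for 100% of values (tolerance 1e-06), used as recovered reads. Other columns of per-sample values numbered 0. The row without a gene name (0.018 to 0.0334% of reads) was left out.

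From the deposited values, log2(value + 1) was fitted with limma 3.58.1 (R 4.3.3; empirical Bayes with trend) to 4 group means over all 14 libraries, for 17400 genes with a mean value of at least 10, leaving 10 residual degrees of freedom. All 43 collagens passed this filter. Differences are on that scale, which understates those of low genes, and p-values were two-sided and Benjamini-Hochberg adjusted over all tested genes, with a threshold of 0.05. Alternatives were pseudocounts of 0.5 and 5, a minimum mean of 50 or none, TMM scaling, scaling on the 75th percentile, robust variances, library weights, only the groups compared, a replicate block, edgeR 4.0.16 and DESeq2 1.42.0 on the recovered reads, and libraries left out. The fit was tested on simulated counts in which only chosen genes differed between groups. Those counts held no difference in library composition and no shared dams, so that test cannot speak to either. Intervals are 95%.

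Every collagen is a member. Values of every library are given for types I, II and III, for Col4a1 and Col4a2, and for the 3 members with the smallest p in each direction in each let-7f comparison; of each partner list the 2 with the smallest p are named. The other genes given by library (types V, VI, XI and XXVII and Col9a3) were chosen after their values were seen. The members and lists were chosen with earlier results of these data known. 3' UTRs and lengths come from GENCODE M21 (GRCm38), an older build than GRCm39, using per gene the transcript with a 3' UTR and the longest coding sequence. Col10a1 was not analysed here.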

Additional observations from a re-analysis of the deposited data

Results flagged for a closer look

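Among 86 tests of a single fetus standing apart within its group of 4 or 5 vehicle fetuses, 7 collagen values did so. Chance gives about 1 in 20 for independent, normally distributed values. These tests used unlogged counts of the same 9 vehicle fetuses, so they are not independent. The share over all genes was not computed, and no excess over chance is claimed. In vehicle male 2, Col9a3 (14143) and Col20a1 (636) were far above the other vehicle males, and Col4a4 (31.4) and Col6a6 (435) far below them; this fetus had 9.67% ribosomal protein reads. In vehicle male 1, Col6a1 (6028) was below the other vehicle males. In vehicle female 2, Col4a3 (55.1) was above the other vehicle females, and in vehicle female 1 Col19a1 (50.5) was below them. For 0 collagens did the male and female let-7f changes differ past the threshold.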

How the results depend on the processing

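The limma, edgeR and DESeq2 fits to all libraries called 0 collagens in each of the 5 comparisons; with a minimum mean of 50, 41 collagens were tested. With single libraries left out, between 0 and 18 collagens were called in males, 0 and 1 over both sexes, and 0 and 16 for the difference between the sexes, the upper values all without let-7f male 2, and 0 in females and between vehicle sexes. The number of all genes called then ran from 0 to 1 in females, 0 to 4390 in males, 0 to 874 over both sexes, 0 to 3206 for the difference, and 5 to 7 between vehicle sexes. The median collagen log2 difference ran from 0.09 to 0.32 in females, -0.71 to -0.34 in males, -0.26 to -0.09 over both sexes, -0.92 to -0.5 for the difference and 0.16 to 0.24 between vehicle sexes. No all-collagen median changed sign under any alternative, though the type IV median did in males (0.08) and over both sexes (0.12) without let-7f male 1.

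In females the 1 gene called over all genes became 0 with a pseudocount of 5, only the groups compared, the replicate block or edgeR. The number was 2 with no filter or DESeq2, and 18 with library weights. In males 1 gene was called with a pseudocount of 0.5 and 58 by DESeq2. DESeq2 called 8 genes over both sexes, 27 for the difference and 12 between vehicle sexes, where limma called 0, 0 and 7. The median difference between the sexes was -0.83 with library weights. The cause of these shifts was not tested. Rescaling to the 75th percentile moved the median of all genes by less than 0.1.

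The labels do not state that replicate numbers pair the samples. Deviations from each group's mean, over all tested genes, had correlations between same-numbered let-7f and vehicle fetuses of -0.289, 0.0313 and -0.326 in females. In males they were -0.354 and -0.576. The deviations of 2 let-7f males from their own mean mirror each other, so these are not separate values. Such correlations cannot show whether the numbers mark a litter or dam. With the number as a replicate block the collagen medians were 0.15 in females, -0.5 in males (16 lower at an unadjusted p under 0.05, against 2.9% of all genes), -0.15 over both sexes, -0.63 for the difference and 0.16 between vehicle sexes, and 0 collagens were called.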
